A study of Rattus norvegicus with 4 samples.

Results

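The natriuretic peptide system is described here in 2 epithelia of the rat mouth. It comprises 6 genes, chosen by symbol: the peptide precursors Nppa, Nppb and Nppc and the receptors Npr1, Npr2 and Npr3. Each of the 6 was represented by 1 probe set, out of 14217 genes measured. Nppb was picked because of its large rise in the comparison described here, so the values of all 6 genes are given as a description, with no test.

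Natriuretic peptides are secreted peptide hormones that are cut from larger precursors. The receptors Npr1 and Npr2 carry a guanylyl cyclase inside the cell and make cyclic GMP when a peptide binds, whereas Npr3 lacks the cyclase and removes peptides from the surroundings. Nppa and Nppb are best known from heart muscle, where stretch and inflammatory signals raise Nppb, and Nppb also serves as a transmitter of itch in sensory neurons of the mouse. Nppc acts mainly near its source, through Npr2, and is best known from growing bone and blood vessels.

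Affymetrix rat arrays were hybridised with RNA from 2 samples of junctional epithelium, which seals the gingiva to the tooth, and 2 samples of peri-implant epithelium, which faces an implant. The comparison asks how the epithelium around an implant differs from that around a tooth. All animals were male Sprague Dawley rats that had a first upper molar extracted and a titanium alloy implant placed at 4 weeks of age, and tissue was taken 4 weeks later. Both tissues were cut out by laser microdissection from frozen sections, and every label names the same surgery, for the junctional samples too. The labels mention 20 rats, while the sources used here do not state how many animals stand behind each array or whether animals were pooled. The p-values below therefore measure only the spread between these arrays, which may be technical.

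All signals below are log2 values unless called linear, and their precision is limited by having 2 arrays per group. The background level was 6.42, the top value reached on the arrays by 27 control probe sets for bacterial genes. The median of these control values was 3.43, so the level is a strict one. On each array, 54.6% to 56.8% of 31042 probe sets lay above 6.42. Arrays numbered 1 held more probe sets at the floor of 0 (729 junctional, 666 peri-implant) than arrays numbered 2 (378 and 382). The keratins Krt5 and Krt14, which define stratified epithelium, were among the bright signals of both tissues (15.73 to 16.23 on every array). Krt19, a keratin also found in junctional epithelium, was 13.47 to 13.68. Ambn, an enamel organ gene, lay below background on all 4 arrays, and Odam and Amtn, which are known from junctional epithelium, had no matched probe set. As these are tissue samples, fewer cells of a type and less RNA per cell cannot be told apart.

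Of the peptide precursors, Nppb alone had a signal above background on every array. The Nppb signal was 8.21 and 8.04 on the junctional arrays, and 10.94 and 10.80 on the peri-implant arrays. The groups did not overlap, and the gap between them was many times the spread within either. On the linear scale, the Nppb signal was 295 and 264 in junctional epithelium, and 1961 and 1780 in peri-implant epithelium. The log2 means were 8.13 ± 0.12 and 10.87 ± 0.10 (SD, n = 2 each), a difference of 2.74 or 6.69-fold. Among 8814 genes above background on all 4 arrays, 6 had a larger rise, a position that follows from how Nppb was picked. With any 1 array left out, the Nppb difference lay between 2.66 and 2.82. The lack of overlap, the wide gap and this narrow range also follow in part from how Nppb was picked.

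Nppa, which encodes atrial natriuretic peptide and lies next to Nppb, gave signals of 1.57 and 3.36 in junctional against 1.66 and 5.36 in peri-implant epithelium. All 4 values lay below background and the groups overlapped, so no fold is given for Nppa. Nppc, which encodes the C-type peptide, gave 3.17 and 6.67 in junctional against 5.91 and 6.51 in peri-implant epithelium. For Nppc, 1 array of each group was just above background, namely the array numbered 2, and the groups overlapped. The junctional values of Nppc differed by 3.50, more than the 1.29 between the group means, and without junctional replicate 1 the Nppc difference was -0.46.

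No receptor gene exceeded background on any array. Npr1, the cyclase receptor for the products of Nppa and Nppb, gave 4.98 and 5.70 in junctional against 5.14 and 2.67 in peri-implant epithelium. Npr2, the cyclase receptor for the product of Nppc, gave 3.99 and 5.39 in junctional against 5.21 and 4.76 in peri-implant epithelium. For both cyclase receptors the groups overlapped. Npr3, the clearance receptor, gave 4.57 and 4.06 in junctional against 6.18 and 6.0 in peri-implant epithelium. Both peri-implant values of Npr3 lay above both junctional values, as they did for 31.2% of all genes, and all 4 lay below background, so no fold is given. A signal below background does not show that a receptor was absent, only that it stayed under the top value of the control probe sets.

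**Figure D1:**
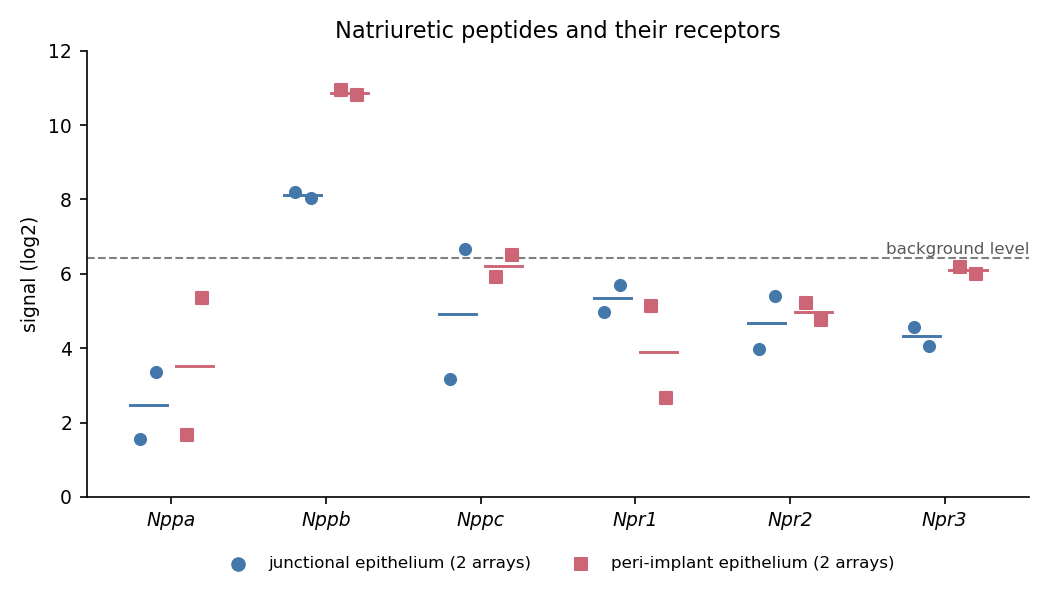
Signal (log2, vertical axis) of the 6 natriuretic peptide and receptor genes on 2 junctional (circles) and 2 peri-implant (squares) arrays, with short lines at the group means and a dashed line at the background level of 6.42. Nppb stands clear of background in both epithelia and is higher on both peri-implant arrays, while the receptors stay below the line on all 4 arrays.

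In the rat assembly GRCr8, Nppb lies on chromosome 5 from 163699955 to 163701314 and Nppa on the same chromosome from 163712184 to 163713493, with no protein-coding gene between them (0 in the reference gene table). The other members lie elsewhere: Nppc on chromosome 9 from 94767986 to 94772186, Npr1 and Npr3 on chromosome 2 from 178231766 to 178247591 and from 62592557 to 62660497, and Npr2 on chromosome 5 from 62678197 to 62697360. All 6 are annotated as protein-coding.

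The sequences before the starts of Nppb and Nppa are shown because the paired genes lie side by side but differed in detection, with Nppb above background in both epithelia and Nppa in neither. Both are from RefSeq's GRCr8 promoter table, plus strand, 5′ to 3′, at chr5:163699758-163699954 for Nppb and chr5:163711934-163712183 for Nppa. Capitals mark matches, on either strand, to 7 motifs searched: AGATAA and TGATAA (bound by GATA factors), CATTCC (the M-CAT element, bound by TEAD factors), TATAAA (the TATA box), TGANTCA (AP-1, bound by Fos and Jun), TTCNNNGAA (STAT factors) and the CArG box (bound by Srf).
Nppb: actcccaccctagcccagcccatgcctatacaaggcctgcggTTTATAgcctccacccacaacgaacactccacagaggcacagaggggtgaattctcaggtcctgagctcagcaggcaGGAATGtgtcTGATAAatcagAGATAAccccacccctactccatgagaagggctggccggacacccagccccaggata
Nppa: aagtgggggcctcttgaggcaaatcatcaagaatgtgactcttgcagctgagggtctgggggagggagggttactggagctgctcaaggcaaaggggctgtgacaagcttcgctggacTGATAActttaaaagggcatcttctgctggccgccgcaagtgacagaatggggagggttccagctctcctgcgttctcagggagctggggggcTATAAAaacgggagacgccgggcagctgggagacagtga

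The search covered a window of 300 bases for each gene, from 250 before to 50 after the start used by that table, which for Nppb lies 53 bases inside the gene record. Close together, the Nppb window held in order CATTCC read on the minus strand (131 to 126 bases before the start), TGATAA (121 to 116 before) and AGATAA (110 to 105 before). TATAAA was matched in Nppb on the minus strand, 208 to 203 bases before the start. The Nppa window held TGATAA (132 to 127 before) and TATAAA (39 to 34 before). For Nppa the start used coincides with the start of the gene record, so relative to the gene records the distances of the 2 genes are not alike. Neither window held the AP-1 or STAT motif or the strict CArG form CCWWWWWWGG, where W is A or T, and no matches overlapped. Looser CArG forms were not searched, so near matches such as ctttaaaagg in the Nppa sequence are not marked. Among 33469 rat promoter windows of this length, 11.6% held AGATAA, 9.03% TGATAA, 14.2% CATTCC, 14.2% TATAAA, 7.33% TGANTCA, 8.87% TTCNNNGAA and 1.64% a CArG box. These are matches of letters and do not show binding.

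The genes around the peptides were taken from 5 lists of processing enzymes, cyclases, cyclic GMP effectors, transcription factors and inducing signals, which together held 81 measured genes. With limma and an intensity trend in the variance prior, 10 of the 81 rose, 3 fell and 68 did not pass (adjusted p under 0.05, Benjamini-Hochberg over all probe sets). Over all genes, 6.6% rose and 4.8% fell by the same rule, against 12.3% and 3.70% of the listed genes. Taken singly, the 5 lists are too short for their counts to be set against these shares. The median difference of the listed genes was 0.06 on the log2 scale and that of all genes 0.05. With limma's default prior 0 of all 31042 probe sets passed, so 0 of the 81 did, while 5247 probe sets and 18 of the 81 had an unadjusted p under 0.05. Leaving out 1 array lowered the calls over all probe sets from 1470 risen and 1292 fallen to between 59 and 146 risen and between 14 and 207 fallen. Of the 81, 2 rose without either junctional array, 4 rose without either peri-implant array, and 0 fell in any of these fits. Fos and Il1b passed with each of the 4 arrays left out, Egr1 and Hif1a with either peri-implant array left out, and the other 9 genes in none of these fits. Over these fits the log2 difference lay between -0.48 and -0.45 for Furin and between 0.26 and 0.49 for Vasp, and each of the 13 kept its direction.

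Among enzymes that cut or degrade natriuretic peptides, 2 of 7 measured rose, 2 fell and 3 did not pass. Shares over all genes were 6.6% risen and 4.8% fallen. Furin, a protease able to cut the Nppb precursor, gave 13.34 and 13.37 in junctional against 12.89 and 12.89 in peri-implant epithelium. Its signal was thus lower on both peri-implant arrays, and Furin fell by 0.46 ± 0.07 (log2 difference ± SE, limma with intensity trend, adjusted p = 0.00414). Ide, the insulin-degrading enzyme, which also cuts natriuretic peptides, fell by 0.48 ± 0.09 (adjusted p = 0.012), and its other probe sets were 1.90-fold and 2.14-fold lower.

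Mme, or neprilysin, a membrane protease that degrades natriuretic peptides, gave 5.94 and 6.55 in junctional against 7.75 and 7.54 in peri-implant epithelium. Mme rose (adjusted p = 0.0473, limma with intensity trend), at least 2.24-fold, because 1 junctional array lay below background. Pcsk5, a proprotein convertase related to Furin, rose by 0.69 ± 0.17 (adjusted p = 0.0395, limma with intensity trend). Of its other 2 probe sets, 1 gave 4.09 and 3.75 in junctional against 7.18 and 7.17 in peri-implant epithelium. The remaining Pcsk5 probe set lay below background on all 4 arrays, and its groups overlapped (adjusted p = 0.496, limma with intensity trend). Corin, the heart protease that activates the Nppa precursor, had no matched probe set.

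Of the other guanylyl cyclases, their ligands and the nitric oxide synthases, 0 of 14 measured passed with an intensity trend, and 3 had an unadjusted p under 0.05 in limma's default fit, where 0 passed too. No array exceeded background for 10 of the 14. Nos2, the inducible nitric oxide synthase, was above background on every array, with 6.93 and 8.15 in junctional against 6.64 and 7.50 in peri-implant epithelium. Its groups overlapped (adjusted p = 0.582, limma with intensity trend). The soluble cyclase subunits Gucy1a1 and Gucy1b1, which answer nitric oxide, were each above background only on junctional array 2, at 6.53 and 7.14. Gucy1a2, another such subunit, gave 3.65 and 2.38 in junctional against 6.49 and 6.31 in peri-implant epithelium, above background only on peri-implant array 1, and did not pass (adjusted p = 0.0618; Gucy1a1, Gucy1b1 and Gucy1a2 stand outside the naming rule).

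Cyclic GMP is read by kinases and channels and broken down by phosphodiesterases. In this list 2 of 16 measured genes rose, 0 fell and 14 did not pass, while 6.6% of all genes rose and 4.8% fell. Pde3b, a phosphodiesterase that cyclic GMP inhibits, gave 5.42 and 6.30 in junctional against 7.78 and 7.75 in peri-implant epithelium. Pde3b rose at least 2.54-fold (adjusted p = 0.0217, limma with intensity trend), with both junctional arrays below background. Vasp, an actin regulator phosphorylated by cyclic GMP-dependent kinase, rose by 0.38 ± 0.09 (adjusted p = 0.0346). Pde5a, the phosphodiesterase specific for cyclic GMP, gave 5.75 and 6.53 in junctional against 7.41 and 7.76 in peri-implant epithelium and did not pass (adjusted p = 0.056; outside the naming rule). Of the cyclic GMP-dependent kinases, Prkg2 lay below background on all 4 arrays, and Prkg1 had no matched probe set.

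Among transcription factors described at the Nppb promoter, mostly in heart muscle cells, 5 of 24 measured rose, 1 fell and 18 did not pass. Of all genes, 6.6% rose and 4.8% fell, and a list of 24 is too short to be set against these shares. Fos, an immediate early gene and part of AP-1, gave 9.91 and 9.89 in junctional against 12.35 and 12.40 in peri-implant epithelium. Both peri-implant values lay far above both junctional ones, and Fos rose by 2.47 ± 0.09 (adjusted p = 9.29e-07, limma with intensity trend), while its other probe set lay below background. Egr1, another immediate early gene, gave 10.99 and 11.03 in junctional against 12.06 and 12.01 in peri-implant epithelium and rose by 1.03 ± 0.09 (adjusted p = 0.000174).

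Hif1a, the oxygen-regulated factor, rose from 12.19 and 12.10 to 13.08 and 13.09 (adjusted p = 0.000144, limma with intensity trend). Rest, a repressor of Nppa and Nppb in heart ventricle, rose by 0.69 ± 0.13 (adjusted p = 0.012), and its second probe set overlapped between groups. Jun, the partner of Fos, which passed beyond the 4 risen genes that the naming rule takes, rose by 0.57 ± 0.09 (adjusted p = 0.0042). Its other probe sets were higher by 0.35 and 0.26 and did not pass (adjusted p = 0.0727 and 0.153). Srf, which binds CArG boxes, fell by 0.63 ± 0.16 (adjusted p = 0.0365), while its second probe set gave 9.03 and 9.10 in junctional against 8.90 and 8.20 in peri-implant epithelium and did not pass (adjusted p = 0.217), and its remaining one lay at background. The heart factors Gata4, Nkx2-5 and Tbx5 lay below background on all 4 arrays. Gata6 was above it on all 4, with 6.95 and 7.75 in junctional against 7.74 and 8.33 in peri-implant epithelium, and did not pass (adjusted p = 0.258). Tead1, which binds the M-CAT element, gave 11.47 and 11.42 in junctional against 11.03 and 11.29 in peri-implant epithelium and did not pass (adjusted p = 0.144). Gata4, Nkx2-5, Tbx5, Gata6 and Tead1 stand outside the naming rule.

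Among signals described as inducers of Nppb and their receptors, 1 of 20 measured rose, 0 fell and 19 did not pass. The shares of all genes were 6.6% risen and 4.8% fallen. Il1b, the inflammatory cytokine interleukin-1 beta, gave 11.83 and 11.79 in junctional against 13.38 and 13.36 in peri-implant epithelium. Il1b rose by 1.56 ± 0.08 (adjusted p = 3.76e-06, limma with intensity trend), with no overlap of the groups. Edn1, or endothelin-1, gave 7.35 and 7.97 in junctional against 8.24 and 8.17 in peri-implant epithelium and did not pass (adjusted p = 0.268; outside the naming rule). The angiotensin receptors Agtr1a, Agtr1b and Agtr2 and the cytokines Il6 and Lif lay below background on all 4 arrays.

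**Figure D2:**
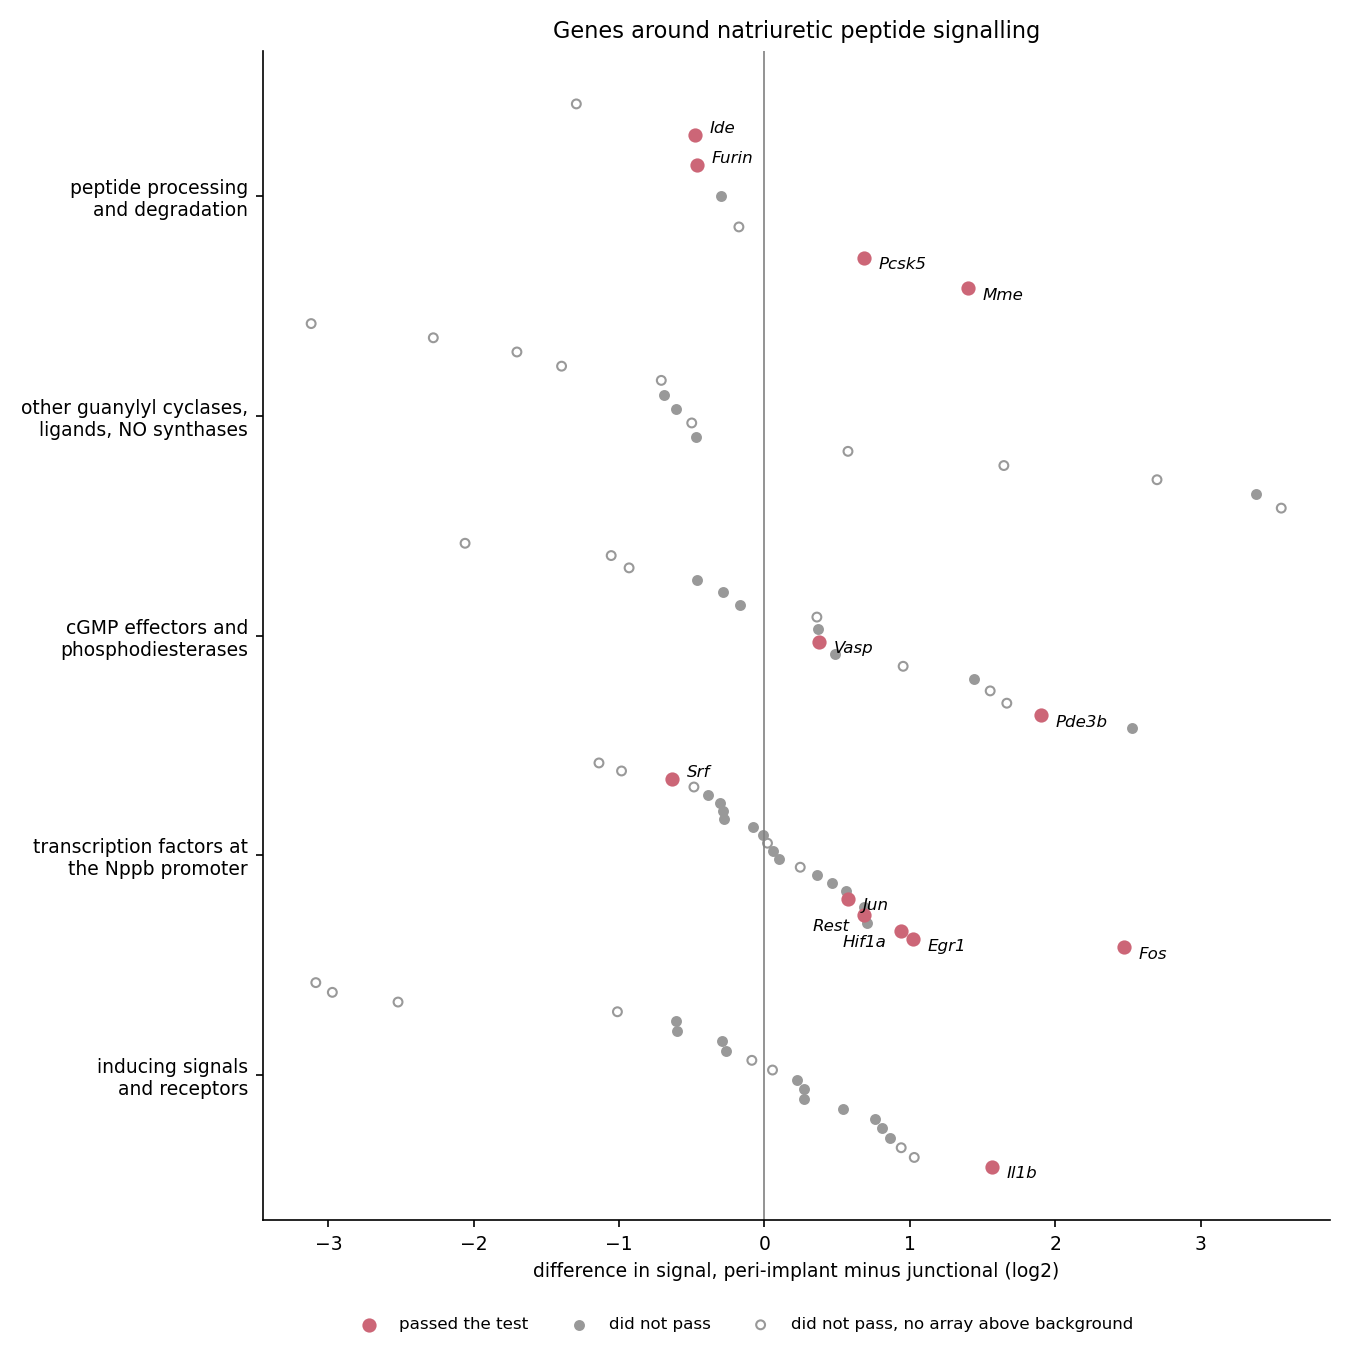
Difference in signal (log2, peri-implant minus junctional, horizontal axis) for the 81 measured genes in 5 lists (vertical axis); large red points passed limma with an intensity trend, grey points did not, and open points had no array above background. Fos and Il1b have the smallest adjusted p among the red points, and many of the largest differences belong to open points that did not pass.

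The 10 nearest measured protein-coding genes, 5 on each side of the Nppb and Nppa pair, were compared in the same way, leaving out 2 genes of that stretch that were not matched on the array. Of these 10, 2 rose and 1 fell (limma with intensity trend) and 7 did not pass. By the same rule 6.6% of all genes rose and 4.8% fell, and 10 genes are too few to set against these shares. Plod1, a collagen lysyl hydroxylase, gave 7.65 and 7.91 in junctional against 9.22 and 9.08 in peri-implant epithelium and rose by 1.37 ± 0.21 (adjusted p = 0.00443). Fbxo6, a ubiquitin ligase subunit that recognizes glycoproteins, rose by 0.76 ± 0.18 (adjusted p = 0.0332), and Mad2l2, a subunit of a DNA polymerase for damaged templates, fell by 0.80 ± 0.21 (adjusted p = 0.0419). With any 1 array left out, when few probe sets passed at all, 0 of these 3 passed (limma with intensity trend; 4 of the 10 neighbours had an unadjusted p under 0.05 in limma's default fit of all arrays). Their differences then ranged from 1.24 to 1.50 for Plod1, from 0.60 to 0.92 for Fbxo6 and from -0.92 to -0.68 for Mad2l2. The genes next to the pair did not pass: 2510039O18Rikl, on the side of Nppb, gave 10.87 and 10.49 in junctional against 10.86 and 10.60 in peri-implant epithelium, and the chloride transporter gene Clcn6, on the side of Nppa, gave 6.57 and 7.21 against 6.79 and 7.13. In both, the groups overlapped.

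**Figure D3:**
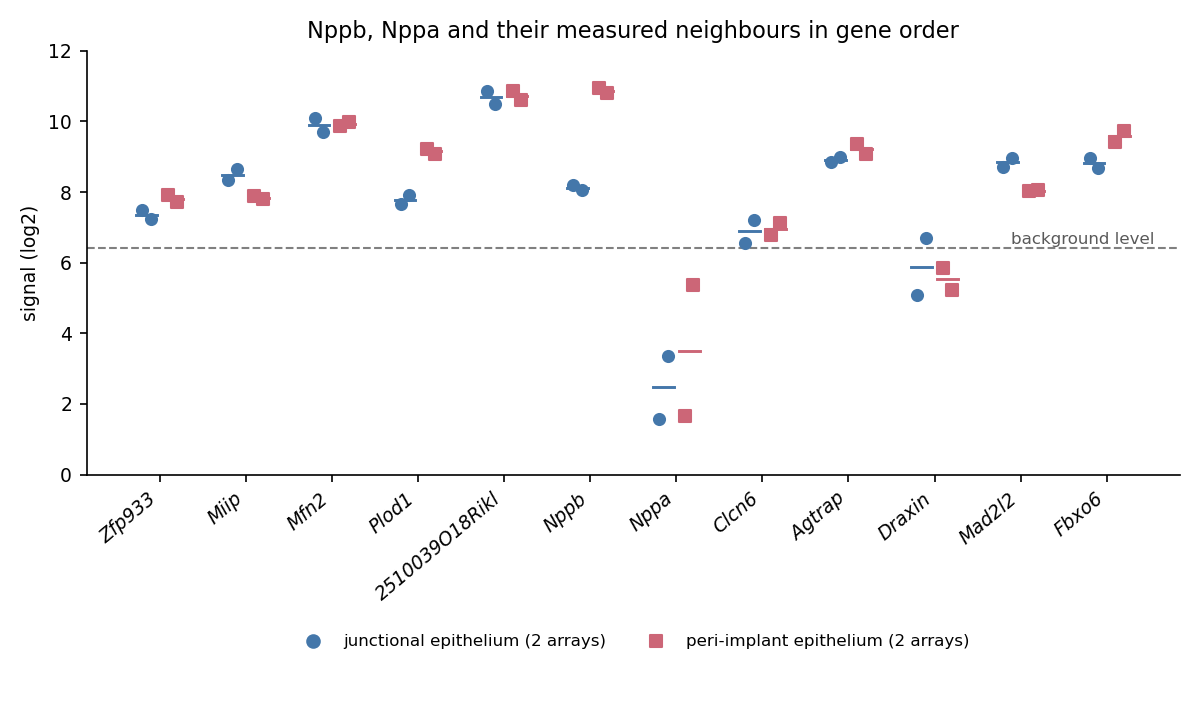
Signal (log2, vertical axis) of Nppb, Nppa and 10 measured neighbours in the order of the genes on the chromosome, on 2 junctional (circles) and 2 peri-implant (squares) arrays; short lines are group means and the dashed line is the background level. The genes directly beside the pair overlap between the epithelia. Nppb does not, which follows from its being picked for its rise. Heights are not comparable between genes.

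Genes were ranked by likeness to Nppb over the 4 arrays, as the root mean square difference of log2 signals after centring each gene on its mean, among 8772 other named genes above background on every array. The closest was Gpr15lg, a chemoattractant for lymphocytes made by epithelia, at 0.086, with 9.86 and 9.68 in junctional against 12.67 and 12.65 in peri-implant epithelium. Gjb2, which encodes a connexin of gap junctions, and Tchh, which encodes trichohyalin of hair follicles and tongue papillae, both stood at 0.12. Ifitm1, an interferon-induced membrane protein, stood at 0.14 and Fos at 0.16. Gjb2 gave 9.88 and 9.44 in junctional against 12.29 and 12.27 in peri-implant epithelium, and Tchh gave 9.48 and 9.46 against 12.12 and 11.88. With 4 arrays in 2 groups, likeness mainly reflects a rise of similar size, so this is a description of size with no test.

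**Figure D4:**
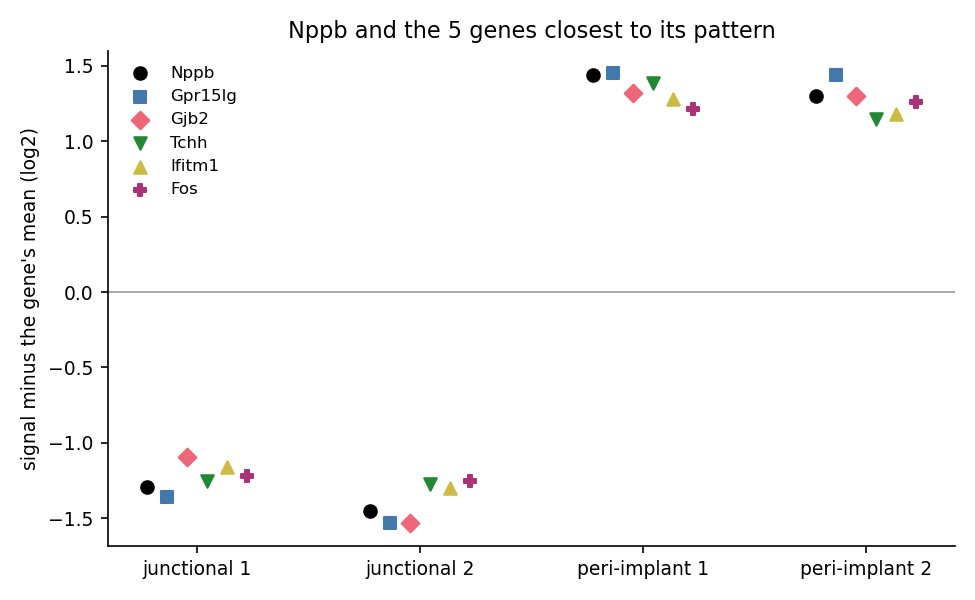
Signal minus the gene's mean (log2, vertical axis) on each of the 4 arrays (horizontal axis) for Nppb and the 5 genes closest to its pattern. All 6 genes lie below 0 on both junctional arrays and above 0 on both peri-implant arrays.

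Laser-captured epithelium can hold other cells, so marker lists are given beside the Nppb values. Of 12 measured markers of striated and heart muscle, 10 had no array above background, including Myh6, Myh7, Myl7, Ckm and Des, and 0 passed in either direction. The exceptions were Tnnt2, or cardiac troponin T, at 11.58 and 11.76 in junctional against 11.56 and 11.31 in peri-implant epithelium, and Ryr2, at 6.82 to 7.72. The summed linear signal of the muscle list was 3434 and 3711 in junctional against 3330 and 2851 in peri-implant epithelium. Tnnt2 made up 89.1% to 93.3% of it, and the other 11 genes summed to 370 and 250 against 302 and 311. All 11 measured sensory neuron markers, among them Trpv1, Calca, Tac1 and Sst, lay below background on every array, with sums of 278 and 300 against 254 and 197.

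Of 8 measured neutrophil markers, 6 rose, 0 fell and 2 did not pass (limma with intensity trend), and their summed linear signal was 40788 and 41138 in junctional against 106424 and 93313 in peri-implant epithelium. Over all genes 6.6% rose and 4.8% fell. S100a8 and S100a9 made up 90.6% to 94.0% of the neutrophil sum, and the other 6 genes summed to 3827 and 3874 against 6355 and 6579. S100a9, a calprotectin subunit also made by keratinocytes, rose from 13.12 and 12.92 to 15.50 and 15.29 (adjusted p = 9.29e-07), and Fcgr3a, an Fc receptor, rose by 1.50 ± 0.30 (adjusted p = 0.0153). Of 10 macrophage markers, 3 rose, 1 fell and 6 did not pass, with sums of 3824 and 3512 against 5444 and 6241. Csf1r, a growth factor receptor of macrophages, rose by 1.42 ± 0.27 (adjusted p = 0.0126), and the mannose receptor Mrc1 fell, at least 2.22-fold (adjusted p = 0.0312). Of 6 T cell markers, 1 rose, Cd2, at least 2.49-fold (adjusted p = 0.012), and 5 did not pass, with sums of 220 and 302 against 590 and 705. In limma's default fit, 6 neutrophil, 4 macrophage and 3 T cell markers had an unadjusted p under 0.05, and 0 passed. By that fit 5247 of 31042 probe sets had such a p. The part of these cells in the Nppb difference was not tested.

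Among the epithelial markers, 2 of 8 measured rose and 0 fell, with sums of 210973 and 219155 in junctional against 288877 and 245390 in peri-implant epithelium. Here too the shares over all genes were 6.6% risen and 4.8% fallen. The lists of this paragraph are too short for their counts to be set against these shares. Krt17, a keratin of stressed and healing epithelium, rose from 12.95 and 13.05 to 14.89 and 14.77 (adjusted p = 1.25e-06, limma with intensity trend), and Krt4, a keratin of moist oral lining, rose by 0.41 ± 0.07 (adjusted p = 0.00691). Endothelium carries Npr1 and Npr3 in many tissues. Of its 9 measured markers 1 fell and 8 did not pass, with sums of 2840 and 3242 against 2421 and 2249. Egfl7 fell by 1.37 ± 0.20 (adjusted p = 0.00377, limma with intensity trend), and its second probe set did not pass (adjusted p = 0.509). The median difference of the 9 endothelial markers was -0.41. In limma's default fit 4 of them had an unadjusted p under 0.05 and 0 passed. Of 7 smooth muscle and pericyte markers 1 rose, the actin-binding protein gene Tagln, at least 2.75-fold (adjusted p = 0.00482), with sums of 2448 and 2491 against 3072 and 3174. Of 7 fibroblast markers, the collagen gene Col1a1 rose by 0.32 ± 0.07 (adjusted p = 0.0169; its second probe set, higher by 0.19, did not pass, adjusted p = 0.188), and the growth factor receptor gene Pdgfra fell by 1.04 ± 0.17 (adjusted p = 0.00583), with sums of 45054 and 45491 against 50858 and 50645. Of 4 Schwann cell markers 0 passed (limma with intensity trend; 1 had an unadjusted p under 0.05 in the default fit), with sums of 338 and 297 against 137 and 180. Among them Pmp22, a myelin protein gene also active in other cells, gave 7.49 and 7.31 in junctional against 5.58 and 6.28 in peri-implant epithelium and did not pass (adjusted p = 0.0585; chosen after its values were seen). Of the markers named with a call, Krt17 and S100a9 alone passed with each array left out.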

How the data were processed

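Total RNA from 4 laser-microdissected samples was amplified, labelled with biotin and hybridised, per the labels' protocols. The authors deposited log2 signals of 31099 probe sets. Their software and normalization steps are not stated in the labels. On every array the linear signals averaged 500.2 once the top and bottom 2% were trimmed, and log2 values stopped at 0. All 4 value columns were used as deposited.

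After 57 control probe sets were left out, 31042 were tested in R 4.3.3 with limma 3.58.1 (lmFit, eBayes with intensity trend and robust prior, two-sided, Benjamini-Hochberg over all of them, threshold 0.05). This prior was chosen with earlier results of these data known, as were the members and all lists. Platform annotation gave 1 symbol for 20826 probe sets, several for 436 and none for 9780. Symbols were updated by gene identifier to GRCr8. The brightest probe set, by mean over the arrays, stood for each gene. Where the lower group had an array at or below background, signals were raised to 6.42 before computing a fold, given as "at least". Differences are peri-implant minus junctional. Summed marker signals add the linear signals of a list's representative probe sets.

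Named genes were the members, up to 4 genes per pathway list and direction past the test whose higher group lay above background on both arrays (otherwise the largest differences so measured), neighbours past the test, and the 2 brightest markers with up to 2 per direction past the test, of which a part is printed. Genes named outside this rule were chosen after their values were seen.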

Additional observations from a re-analysis of the deposited data

How the results depend on the processing

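Among the 81 pathway genes, 10 rose and 3 fell. With limma's default prior the counts were 0 and 0, and for the 10 neighbours 0 and 0 in place of 2 and 1, in a fit that passed 0 of all 31042 probe sets. Leaving out 1 array gave 2 to 4 pathway genes that rose, 0 that fell, and 0 neighbours in either direction; a lone array is assumed there to vary like the other group. Pathway genes that fell numbered 5 after a filter on low signals and 5 with the replicate block, and those that rose 14 in both, in each case including the 13 genes called without them. By their labels the samples share only a replicate number, and deviations of same-numbered arrays correlated at 0.04 across probe sets. Even so, arrays numbered 1 held more probe sets at 0 (729 and 666) than arrays numbered 2 (378 and 382). Over all probe sets the replicate block raised the calls from 1470 risen and 1292 fallen to 2226 and 1976. Quantile normalization, raising signals to background, an offset of 32 on the linear signal and averaging probe sets gave 9 to 13 risen and 2 to 3 fallen. Of the 16 genes named as risen or fallen from pathway lists and neighbours, 16 lost their call with the default prior, 12 to 14 with an array left out and 2 with the offset; 0 changed direction. With an array left out, their differences stayed at 0.70 to 1.30 times the full value. The Nppb difference of 2.74 was 2.61 with the offset. For Npr3 the offset gave 0.94. Raising signals to background gave 0.00 for Nppa, Npr1, Npr2 and Npr3, as it must where all signals lie below it, and -0.08 for Nppc. With an array left out, differences ranged from -0.80 to 2.90 for Nppa, from -0.46 to 3.04 for Nppc, from -0.41 to 1.00 for Npr2, from -2.67 to -0.20 for Npr1, and from 1.52 to 2.03 for Npr3. Signals near background limit all members except Nppb.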
